A study of Mus musculus with 16 samples.

Results

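The genes described are Pck1, Fbp1 and G6pc of glucose synthesis, the aminotransferases Tat, Gpt, Gpt2 and Got1, the amino acid lyases Sds and Cth, and Ppargc1a, a transcriptional coactivator of glucose synthesis. They were found by gene name in the scanner files of liver arrays from mouse offspring, with Gpt listed there under its older name Gpt1. They are 10 of the 28786 genes named on the array and 10 of the 19363 genes tested. Only Ppargc1a had 2 probes, of which the brighter in liver was taken. The genes were selected on their ratio and liver values in these same arrays, the opposite differences of Tat in the sexes among them, so their differences between groups are given as a description of these animals.

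All dams were time-mated C57BL/6BomTac mice. The dams of the exposed offspring inhaled UV-Titan, a coated titanium dioxide of nanoscale particles, at about 42 mg/m3. Exposure lasted 1 hour daily from gestation day 8 to day 18, and the dams of the control offspring breathed filtered air. Liver RNA of 16 offspring was measured, 1 array each: 3 female controls, 5 female UV-Titan, 4 male controls and 4 male UV-Titan. The labels name offspring ages of postnatal day 2 and postnatal days 23 to 24 for the study as a whole, but do not give the age, the litter or the feeding state (suckling, fed or fasted) of any array, and RNA came from random sections of each liver. The p-values therefore measure only the spread between these arrays, in which animal, piece of liver and array cannot be told apart. Litter mates cannot be told from unrelated animals.

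The liver makes glucose from lactate, glycerol and amino acids when little of it comes with food. Pck1 turns oxaloacetate into phosphoenolpyruvate, Fbp1 removes a phosphate from fructose bisphosphate, and G6pc frees glucose for export. Tat opens the breakdown of tyrosine, Gpt and Gpt2 move amino groups between alanine and glutamate, and Got1 does so for aspartate. Sds makes pyruvate from serine, and Cth splits cystathionine into cysteine. Glucagon, through cyclic AMP, and glucocorticoids raise several of these genes and insulin lowers them. In rodents, Pck1 and Tat come on in the liver around birth, and a suckling pup on fat-rich milk keeps glucose synthesis running.

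For 7 of the 10 genes the RefSeq promoter table of build GRCm38.p6 held a sequence, and Gpt, Sds and Cth had none there. The 250 bases before the start were searched on both strands for the cyclic AMP response element core TGACGT, the insulin response core CAAAACA, the forkhead site TGTTTAC and the glucocorticoid receptor core AGAACA. The promoters with a match are shown because they carry letters known from hormone control of this pathway, and that of Tat because its exposed and control arrays were separate by ratio in both sexes. Capitals mark the matched letters, here all on the opposite strand.
Pck1 promoter (chr2:173152823-173153072, plus strand): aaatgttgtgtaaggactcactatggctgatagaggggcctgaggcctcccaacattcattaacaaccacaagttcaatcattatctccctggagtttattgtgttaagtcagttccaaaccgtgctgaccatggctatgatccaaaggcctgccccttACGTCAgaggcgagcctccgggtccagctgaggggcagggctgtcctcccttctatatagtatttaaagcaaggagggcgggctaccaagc
G6pc promoter (chr11:101367466-101367715, plus strand): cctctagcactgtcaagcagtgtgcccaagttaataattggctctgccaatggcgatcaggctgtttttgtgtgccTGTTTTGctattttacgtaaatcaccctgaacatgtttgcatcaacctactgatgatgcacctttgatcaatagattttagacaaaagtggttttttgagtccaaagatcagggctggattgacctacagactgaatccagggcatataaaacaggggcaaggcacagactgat
Ppargc1a promoter (chr5:51567726-51567975, minus strand): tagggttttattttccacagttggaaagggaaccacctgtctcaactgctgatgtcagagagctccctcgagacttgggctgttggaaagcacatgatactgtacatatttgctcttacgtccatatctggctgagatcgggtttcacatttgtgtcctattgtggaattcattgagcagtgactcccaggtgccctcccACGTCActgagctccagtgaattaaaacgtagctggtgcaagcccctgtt
Tat promoter (chr8:109990186-109990435, plus strand): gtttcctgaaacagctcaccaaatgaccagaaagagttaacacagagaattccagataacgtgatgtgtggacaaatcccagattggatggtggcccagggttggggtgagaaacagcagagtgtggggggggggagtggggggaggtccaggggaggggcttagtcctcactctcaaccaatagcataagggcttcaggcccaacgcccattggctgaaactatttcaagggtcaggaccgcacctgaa
The TGACGT core lay 91 bases before the start of Pck1 and 50 bases before that of Ppargc1a, and 6.47% of all 32851 promoters hold it in this window. The CAAAACA core lay 174 bases before the start of G6pc, against 5.56% of all promoters. Tat, Gpt2, Got1 and Fbp1 held none of the 4 motifs here, of which the forkhead site is in 3.17% and the glucocorticoid receptor core in 16.1% of all promoters. A match is a description of letters, and a missing match says only that these letters are not in this window.

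Each array carried liver RNA in red and a common mouse reference RNA in green. The label fields and the labelling protocol name opposite dyes, and red was taken as liver because Xist lay between 1.68 and 2.07 (log2 red over green) in females and between -6.10 and -4.78 in males, and Ddx3y between -2.20 and -1.39 in females and between 1.61 and 2.03 in males. Per array, 57.7% to 67.1% of spots were well above background in the liver channel, and the 16 arrays lay on 5 slides. The mean ratio of 13 hepatocyte markers, such as Alb and Ttr, was between 4.93 and 6.15 on every array. Exocrine pancreas markers (10 of 13 tested) had a mean log2 ratio of 3.45 and 2.39 in male controls 31 and 33, against 0.40 to 0.67 in the other 14 arrays. Skeletal muscle markers (8 of 10 tested) stood at 1.23 in male UV-Titan 5 and at -1.41 to -0.62 elsewhere.

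The liver signal of all 10 genes was well above background on 16 of 16 arrays. On the scale of log2 liver over reference, averaged over the arrays, the ratio was 6.88 for Fbp1, 6.55 for Pck1, 4.77 for Tat and 4.68 for G6pc. It was 2.91 for Cth, 2.89 for Sds and 1.81 for Ppargc1a, and close to the reference for Gpt (0.20), Gpt2 (0.06) and Got1 (-0.09). These values set each gene against the same gene in the reference and do not rank the genes by amount. Several of the genes varied widely between arrays. The SD over the 16 arrays was 0.52 for Pck1 and 0.55 for Fbp1, at the 99.5th and 99.6th percentile of all genes, and 0.41 for Ppargc1a and 0.38 for Sds, against a median SD of 0.13 over all genes. By liver signal alone the SD was 0.43 for Pck1, 0.53 for G6pc and 0.49 for Tat, while that of Fbp1 was 0.18. In the reference channel, the same RNA on every array, the SD was 0.49 for Pck1, 0.52 for Fbp1, 0.36 for G6pc and 0.28 for Tat. It was 0.28 for Ppargc1a, 0.26 for Gpt, 0.16 for Cth and 0.14 for Gpt2, against a median of 0.11 over all genes. For Sds and Got1 it was lower, 0.09 and 0.08, where the SD of the liver signal was 0.40 and 0.25. The parts of the animals and of the arrays in these spreads were not tested. The Fbp1 spot ranked between 46 and 90 in brightness among 43379 spots, near the end of the range where quantile scaling sets the value by rank.

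**Figure D1:**
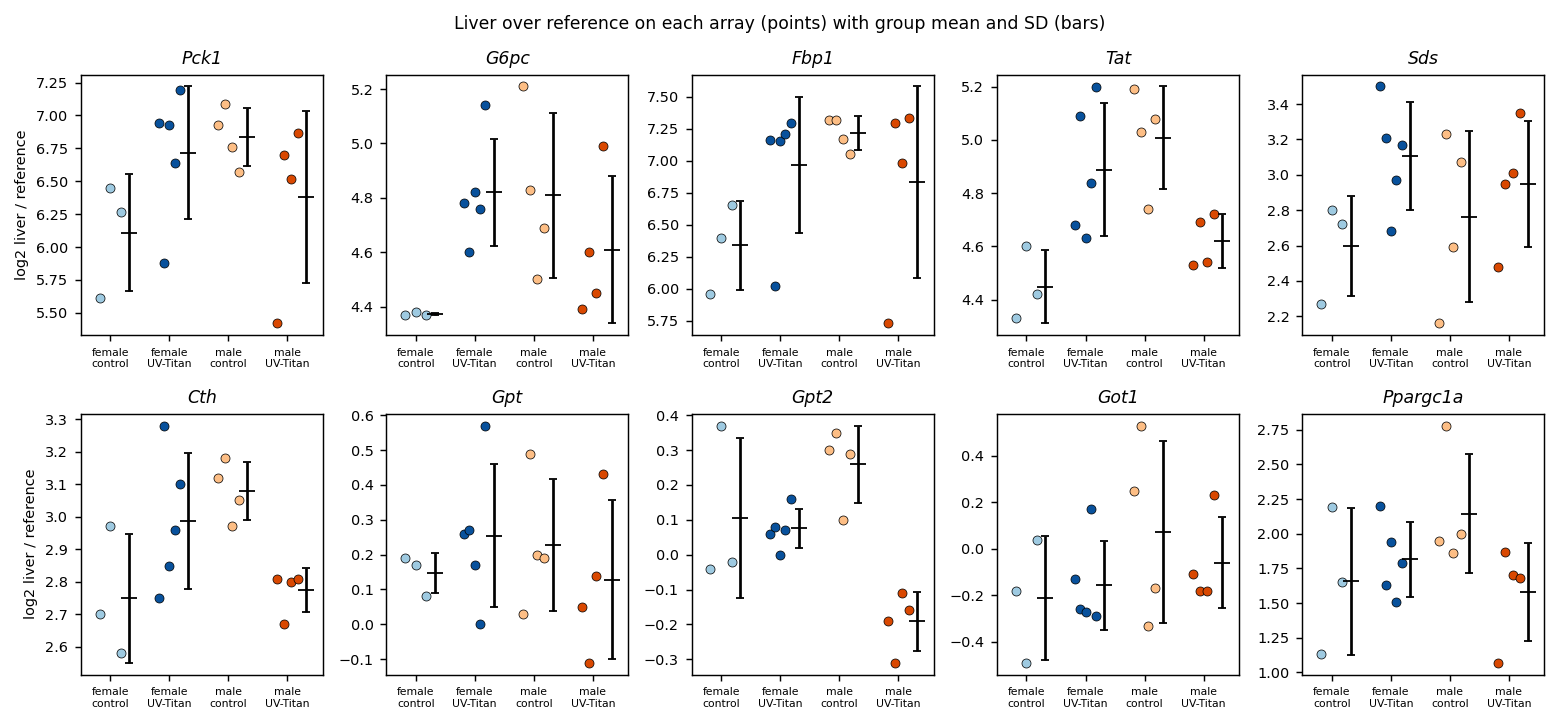
Log2 liver over reference of the 10 genes on each of the 16 arrays (points) by sex and exposure, with the group mean and SD (bars). Tat, Gpt2 and Cth have male UV-Titan arrays that all lie below the male controls, and Tat and G6pc have female UV-Titan arrays that all lie above the female controls.

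UV-Titan offspring were compared with controls of the same sex. The 10 genes were selected on these values. Here and below, their counts beside the shares over all genes are therefore a description and no test. By ratio, 9 of the 10 genes were higher in UV-Titan females than in control females and 9 of 10 were lower in UV-Titan males than in control males. Over all genes 58.5% were above 0 in females and 43.4% below 0 in males. The median difference of the 10 genes was 0.34 in females and -0.35 in males (log2), beside 0.02 and 0.02 over all genes. No gene passed an adjusted p of 0.05 in either sex in limma, which is 0 of 19363 genes (0%), and so none of the 10 did. At an unadjusted p below 0.05, 1294 genes lay past the threshold in females and 958 in males. Among the 10 genes, 4 were higher at that level in females (Tat, G6pc, Cth and Sds, background 5.41%) and 0 lower (background 1.28%). In males 4 were lower (Gpt2, Tat, Cth and Ppargc1a, background 1.82%) and 0 higher (background 3.13%). By liver signal alone, 7 of 10 were above 0 in females (background 49.7%) and 9 of 10 below 0 in males (background 49.5%), with medians of 0.14 and -0.34. There 1 gene was higher at an unadjusted p below 0.05 in females (Tat, background 1.55%) and 4 were lower in males (Tat, G6pc, Pck1 and Gpt2, background 1.69%), and 0% of all genes passed the adjusted threshold, with 603 and 622 genes at the unadjusted level. Averaged over both sexes by ratio, Sds was the 1 gene higher at the unadjusted level (0.35 ± 0.16, background 5.53%) and Gpt2 the 1 lower (-0.24 ± 0.06, background 1.53%), with adjusted p of 0.706 and 0.302 in limma.

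Tat, the enzyme that starts tyrosine breakdown, differed in opposite directions in the sexes. Its log2 ratio was 4.33, 4.42 and 4.60 in the 3 female controls and 4.63, 4.68, 4.84, 5.09 and 5.20 in the 5 UV-Titan females. It was 4.74, 5.03, 5.08 and 5.19 in the 4 male controls and 4.53, 4.54, 4.69 and 4.72 in the 4 UV-Titan males. Exposed and control arrays did not overlap in either sex, and every male control lay above every female control. The UV-Titan females were higher by 0.44 ± 0.13 (SE, 5 against 3 arrays, 1.36-fold) and the UV-Titan males were lower, at -0.39 ± 0.12 (4 against 4 arrays, 1.31-fold). The adjusted p in limma was 0.614 in females and 0.951 in males. The female minus male difference was 0.83 ± 0.18 with an adjusted p of 0.98 and an unadjusted p of 0.000246. By liver signal alone the UV-Titan males ran from 12.45 to 12.65 and the male controls from 12.91 to 13.65, a difference of -0.86 ± 0.22 (1.82-fold). There the females overlapped, with controls at 12.30 to 12.64 and UV-Titan at 12.46 to 13.68, and differed by 0.55 ± 0.23.

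Such separation of exposed and control arrays by ratio was seen for 3.17% of all genes with UV-Titan females higher and for 1.07% with UV-Titan males lower. Of the 10 genes, 2 were separate in females (Tat and G6pc) and 3 in males (Tat, Gpt2 and Cth). By liver signal it was Tat alone in males (background 0.878%) and 0 of the 10 in females with UV-Titan higher (background 1.07%). Within slides that held both groups of a sex, the Tat ratio difference in males was -0.20, -0.47 and -0.39 on 3 slides, and in females 0.03, 0.26 and 0.77 on 3 slides. By liver signal these were -0.44, -0.97 and -1.17 in males and -0.14, 0.04 and 1.37 in females, the highest on slide 5, and without slide 5 the female liver difference of Tat was 0.30. Without the 2 male controls with pancreas markers the male difference of Tat was -0.29 by ratio and -0.77 in the liver channel.

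**Figure D2:**
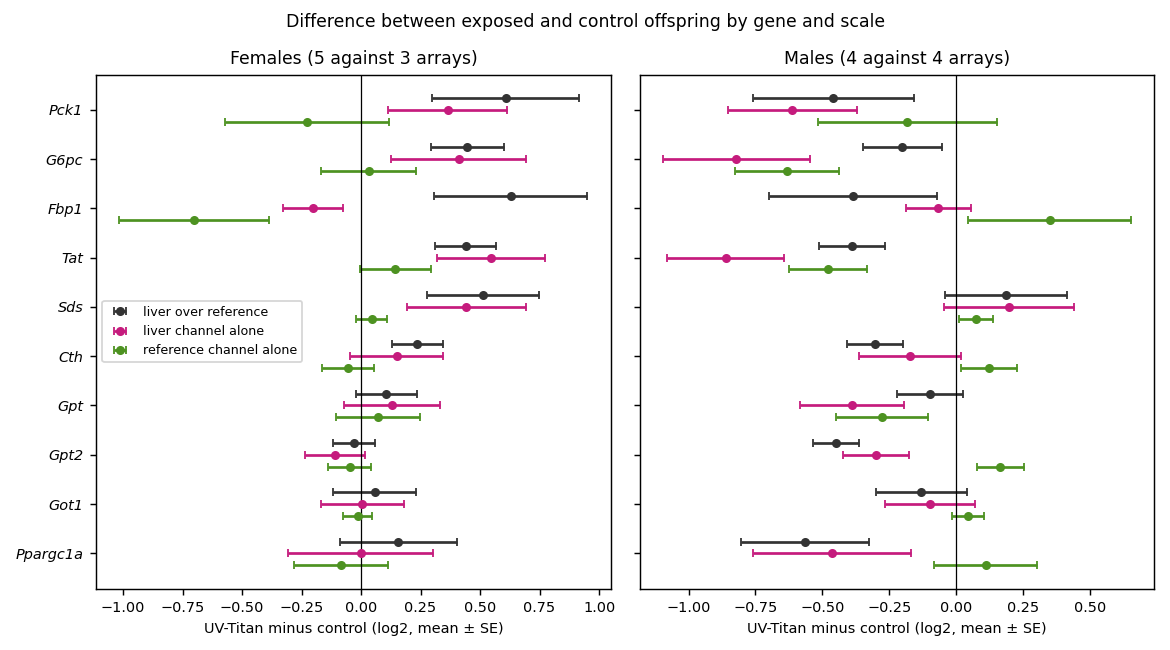
UV-Titan minus control for each gene on the log2 scale (points, bars are SE from limma), in females and males, for liver over reference, the liver channel and the reference channel. Tat in males is at -0.39 by ratio and -0.86 in the liver channel, and Fbp1 in females is at 0.63 by ratio and -0.20 in the liver channel.

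Gpt2, the mitochondrial alanine aminotransferase, had the smallest p of the 10 genes. Its ratio was 0.10, 0.29, 0.30 and 0.35 in male controls and -0.31, -0.19, -0.16 and -0.11 in UV-Titan males. The groups did not overlap, and the difference was -0.45 ± 0.09 (SE, 4 against 4 arrays, 1.37-fold), with an unadjusted p of 7.55e-05 and an adjusted p of 0.951 in limma. The male liver difference was smaller, -0.30 ± 0.12, and the groups overlapped by range (10.18 to 10.64 in controls, 10.04 to 10.28 in UV-Titan). The female ratios were -0.04, -0.02 and 0.37 in controls and 0.00 to 0.16 in UV-Titan, a difference of -0.03 ± 0.09. Within slides, the male ratio difference was -0.21, -0.46 and -0.60.

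Cth, which makes cysteine, showed the same split by ratio. It was 2.97, 3.05, 3.12 and 3.18 in male controls and 2.67, 2.80, 2.81 and 2.81 in UV-Titan males, a difference of -0.30 ± 0.10 with an adjusted p of 0.951 in limma. The female controls were at 2.58, 2.70 and 2.97 and the UV-Titan females at 2.75, 2.85, 2.96, 3.1 and 3.28, which overlapped and differed by 0.24 ± 0.11. Without the 3 arrays of slide 5, a setting chosen after seeing the data, the female difference was 0.14. The liver differences of Cth were 0.15 ± 0.20 in females and -0.17 ± 0.19 in males.

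Gpt, the cytosolic alanine aminotransferase, and Got1, the cytosolic aspartate aminotransferase, differed by less than 1 SE by ratio in both sexes. Gpt differed by 0.11 ± 0.13 in females and -0.10 ± 0.12 in males, and Got1 by 0.06 ± 0.17 and -0.13 ± 0.17. The liver signal of Gpt was at -0.39 ± 0.20 in males, with controls at 10.54 to 11.17 and UV-Titan at 9.95 to 10.74. Sds, which breaks down serine, was the 1 gene of the 10 with a male difference above 0, 0.19 ± 0.23. Its female ratios were 2.27, 2.72 and 2.80 in controls and 2.68, 2.97, 3.17, 3.21 and 3.50 in UV-Titan, a difference of 0.51 ± 0.24 with an adjusted p of 0.726. Without slide 5 the Sds difference was 0.32 in females and 0.34 in males.

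G6pc, the last step of glucose release, had nearly the same ratio in the 3 female controls, 4.37, 4.37 and 4.38. The UV-Titan females lay above them at 4.60, 4.76, 4.78, 4.82 and 5.14, a difference of 0.45 ± 0.15 (SE, 5 against 3 arrays, 1.36-fold) with an adjusted p of 0.658 in limma. The male controls were at 4.50, 4.69, 4.83 and 5.21 and the UV-Titan males at 4.39, 4.45, 4.60 and 4.99, which overlapped and differed by -0.20 ± 0.15. Liver signals of the female controls were spread from 13.00 to 13.55 and overlapped the UV-Titan females, at 12.94 to 14.19 there. The female difference in the liver channel was 0.41 ± 0.28, and within slides it was 0.50, 0.66 and -0.60. The male difference in the liver channel was -0.82 ± 0.27 (1.77-fold), with male controls at 13.19, 14.17, 14.39 and 14.46 and UV-Titan males at 12.74, 13.25, 13.39 and 13.54. Of these controls the lowest lay inside the UV-Titan range. Without the 2 male controls with pancreas markers it was 0.01 by ratio and -0.45 in the liver channel.

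Pck1, the entry step of glucose synthesis, and Fbp1 had the widest ratio differences of the 10 genes in females, and also the widest errors. Pck1 was 5.61, 6.27 and 6.45 in female controls and 5.88, 6.64, 6.93, 6.94 and 7.19 in UV-Titan females, a difference of 0.61 ± 0.31. It was 6.57 to 7.09 in male controls and 5.42, 6.52, 6.70 and 6.87 in UV-Titan males, a difference of -0.46 ± 0.30, which was -0.14 without slide 5 and -0.29 without the 2 pancreas-high arrays. The adjusted p in limma was 0.771 in females and 0.956 in males. Its liver signal differed by 0.36 ± 0.25 in females and by -0.61 ± 0.24 in males, where 2 of the 4 controls were at 15.93 and 16.17 and the other 2 at 14.78 and 15.01, inside the UV-Titan range of 14.64 to 15.06. The high values were those of male controls 33 and 43. Within slides the Pck1 difference in males was -0.25, -0.05 and 0.13 by ratio and -0.14, -0.08 and -0.87 by liver signal. In females it was 0.48, 0.67 and 0.27 by ratio and -0.10, 0.41 and 0.47 by liver signal.

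Fbp1 was 5.96, 6.40 and 6.65 in female controls and 6.02, 7.15, 7.16, 7.21 and 7.29 in UV-Titan females, a ratio difference of 0.63 ± 0.32. Its liver difference had the other sign, -0.20 ± 0.13, and in the reference channel it was -0.70 ± 0.31. The reference RNA is the same material on every array. Its Fbp1 signal was nevertheless 10.84 to 11.08 in female controls, 11.22 in UV-Titan female 16 and 11.49 in UV-Titan male 17, and 9.77 to 10.50 on the other 11 arrays. UV-Titan female 16, UV-Titan male 17 and female control 25 shared slide 5. In males the ratio difference of Fbp1 was -0.39 ± 0.31, and -0.02 without slide 5.

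**Figure D3:**
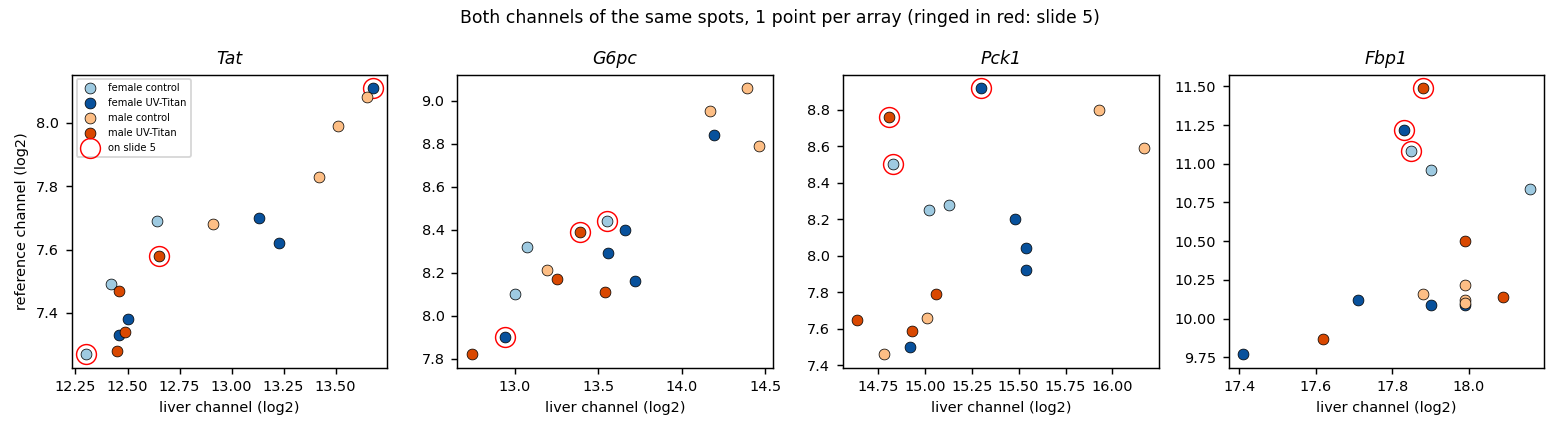
Liver channel against reference channel (both log2, quantile-scaled) for Tat, G6pc, Pck1 and Fbp1, 1 point per array, coloured by group, with the 3 arrays of slide 5 ringed. Tat and G6pc values of the reference rise with those of liver, and the 3 ringed arrays and the female controls have the highest Fbp1 reference values.

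The reference values of most of the genes followed the liver values of the same spots. After removal of group means, Pearson's r between both channels over the 16 arrays was 0.94 for Cth, 0.92 for Tat and 0.88 for G6pc, and Spearman's rho was 0.91, 0.89 and 0.78. The permutation p adjusted over the 10 genes was 5e-05, 5e-05 and 0.000167 for r. The permutation shuffled deviations over all 16 arrays regardless of group and slide, so these p-values tend to be too small. Without the 2 arrays farthest from the median of the liver value, r was 0.91, 0.84 and 0.77, and with slide means removed 0.84, 0.97 and 0.96. For Got1 r was 0.08 and for Fbp1 0.22, with adjusted p of 0.774 and 0.443. Over all genes the median r was 0.64, so the relation was general on these arrays. For Tat in males the reference channel differed by -0.48 ± 0.15 beside -0.86 in liver, and for G6pc by -0.63 ± 0.19 beside -0.82.

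The hepatocyte markers were read beside the 10 genes on both scales. The 13 hepatocyte markers tested were all higher by ratio in UV-Titan females, with a median difference of 0.53 (range 0.35 to 0.87), and 10 of 13 had an unadjusted p below 0.05 (5.41% of all genes were higher at that level). By liver signal their median difference was 0.03, with 8 of 13 above 0 (49.7% of all genes, and 58.5% by ratio). In males the median was -0.18 by ratio and 0.07 in the liver channel. By array their mean ratio was 5.04 to 5.31 in female controls, 5.27 to 6.15 in UV-Titan females, 5.62 to 6.11 in male controls and 4.93 to 6.10 in UV-Titan males. The part of this shift in the ratio differences of Tat, G6pc, Pck1 and Fbp1 was not tested. The liver channel values above do not contain the reference. The reference values of the same spots nevertheless moved with them for most of the 10 genes, so the liver channel is not free of effects shared by both channels.

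Ppargc1a, the coactivator that glucagon induces in liver, was lower by ratio in UV-Titan males, at 1.07, 1.68, 1.70 and 1.87 against 1.86, 1.95, 2.00 and 2.78 in male controls. The difference was -0.56 ± 0.24 with an adjusted p of 0.951 in limma, and -0.35 without the pancreas-high arrays, of which male control 33 held the highest value. Its second probe gave -0.37 ± 0.23 and correlated with the first at r = 0.80 across the 16 arrays. In females the difference was 0.16 ± 0.25, and -0.06 without slide 5. The liver channel gave 0.00 ± 0.31 in females and -0.47 ± 0.30 in males.

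Differences between the female and the male effect were above 0 for 10 of 10 genes by ratio, where 52.5% of all genes were, and for 9 of 10 in the liver channel, where 50.1% were. At an unadjusted p below 0.05 it was 6 of 10 by ratio (Tat, Cth, Gpt2, G6pc, Pck1 and Fbp1, background 2.54%) and 3 of 10 in the liver channel (Tat, G6pc and Pck1, background 1.27%). The largest in the liver channel was Tat at 1.41 ± 0.31, followed by G6pc at 1.23 ± 0.39 and Pck1 at 0.98 ± 0.35. The adjusted p in limma was 0.975 for each of these 3, and 0 of 19363 genes passed on either scale, with 825 by ratio and 548 in the liver channel at an unadjusted p below 0.05. Averaged over both exposures, 0 of the 10 genes differed between the sexes at an unadjusted p below 0.05 on either scale. Over all genes 833 (4.3%) did so by ratio and 423 (2.18%) in the liver channel. The adjusted threshold was passed by 9 of all genes (0.0465%) by ratio and by 7 (0.0362%) in the liver channel.

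Apart from the groups, some of the genes varied together from array to array. The reference values of the same spots followed those of liver, with r of 0.94 for Cth, 0.92 for Tat, 0.78 for Gpt2 and 0.78 for Sds. The parts of the animals and of the arrays in this variation were not tested. All 45 pairs were tested over 16 arrays on deviations from group means, with permutation p adjusted over the pairs. Tat, Cth and Gpt2 varied together in the liver channel, where r was 0.81 for Tat with Gpt2 (rho 0.86, adjusted permutation p 0.0045), 0.72 for Tat with Cth (rho 0.66, 0.0175) and 0.71 for Gpt2 with Cth (rho 0.80, 0.0175). On ranks the adjusted permutation p was 0.0027, 0.0591 and 0.00472, so Tat with Cth did not pass on both measures there. Without the 2 farthest arrays these were 0.75, 0.44 and 0.67, and with slide means removed 0.82, 0.82 and 0.84. By ratio r was 0.71 for Tat with Cth (adjusted permutation p 0.0346 for r and 0.0114 for ranks), 0.68 for Gpt2 with Cth (0.0429) and 0.55 for Tat with Gpt2 (0.13).

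In the liver channel Ppargc1a had r of 0.74 to Gpt and 0.69 to Sds (adjusted permutation p 0.0175 and 0.0193), and Sds with Pck1 had r of 0.72 (0.0175). Rank correlations gave adjusted permutation p of 0.012, 0.0962 and 0.0754 for these 3 pairs, so of them Ppargc1a with Gpt passed on both measures. By ratio r for the same 3 pairs was 0.30, 0.65 and 0.40, and the adjusted permutation p was 0.519, 0.0603 and 0.41. By ratio it was Pck1 with Ppargc1a that passed on both measures (r = 0.70, rho 0.75, adjusted permutation p 0.0346 and 0.0123), with r of 0.50 in the liver channel (0.2). G6pc went with Got1 at r = 0.69 in the liver channel (rho 0.68, adjusted permutation p 0.0193 and 0.0591), and at 0.45 by ratio (0.263). Pck1 and Fbp1 were the most alike by ratio, r = 0.95 (rho 0.80, adjusted permutation p 0.00045, 0.85 without the 2 farthest arrays). The same pair had r of 0.00 in the liver channel (adjusted permutation p 0.997), and with slide means removed r was 0.84 by ratio and -0.67 in the liver channel. By these p-values, which tend to be too small, 4 of the 45 pairs by ratio and 3 in the liver channel passed on both measures. Over the 45 pairs the median r was 0.28 by ratio and 0.09 in the liver channel.

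**Figure D4:**
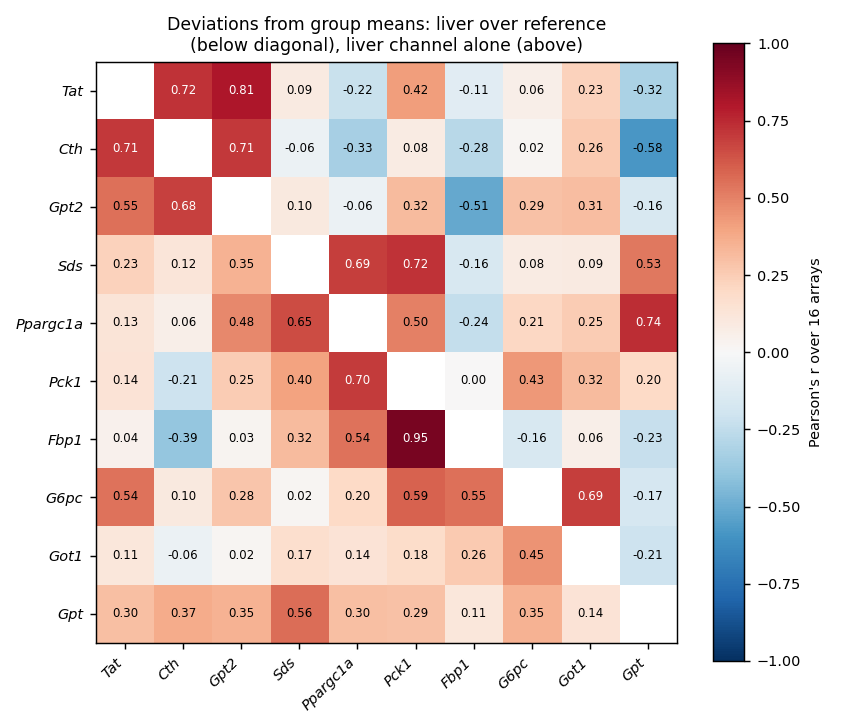
Pearson's r between the genes over 16 arrays after removal of group means, by ratio below the diagonal and in the liver channel above it. Tat, Cth and Gpt2 are alike on both scales (0.55 to 0.81), while Pck1 with Fbp1 is 0.95 by ratio and 0.00 in the liver channel.

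The genes outside the 10 whose liver channel was most like that of Tat, over 16 arrays after removal of group means, were Slc38a2, a neutral amino acid transporter (r = 0.88), Clmn (0.86), Mknk1 (0.86), Zfp275 (0.85) and Slc17a1, a phosphate transporter (0.84). By ratio these were 0.68, 0.83, 0.24, 0.53 and 0.59. For Pck1 they were Rhobtb1 (0.92), Brap (0.90), 4833417J20Rik (0.89), TC1507823 (0.89) and Myadm (0.87), of which Rhobtb1 was at -0.06 by ratio. They are the 5 highest of all genes tested for each, so high values had to occur.

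Other genes of the same pathways were read from lists chosen with earlier results known. Their median differences were smaller than those of the 10 genes. The 10 genes were selected on these same values, so this contrast is no test. None of the lists held a gene past an adjusted p of 0.05 in either sex. Of the other genes of gluconeogenesis and of glycerol and fructose entry, 19 of 20 were tested. By ratio 10 of 19 were above 0 in females and 8 of 19 in males, with medians of 0.01 and -0.05. By liver signal 3 of 19 were above 0 in females and 6 of 19 in males, with medians of -0.09 and -0.06. Over all genes 58.5% in females and 56.6% in males were above 0 by ratio, and 49.7% and 50.5% by liver signal. Pcx, the pyruvate carboxylase that feeds the Pck1 step, was at 0.23 ± 0.10 in females by ratio and 0.12 ± 0.15 in the liver channel. Eno1, an enolase, was at -0.22 ± 0.10 by ratio and -0.21 ± 0.16 in the liver channel, and Gpd1, which brings in glycerol phosphate, at 0.36 ± 0.14 by ratio but -0.08 ± 0.10 in the liver channel. Of 9 glycolysis and glucokinase genes the medians were 0.10 and 0.00 by ratio and 0.06 and -0.01 by liver signal. In females Pdk4, which holds pyruvate back from oxidation, was at 0.42 ± 0.25 by ratio and 0.36 ± 0.23 in the liver channel, Mlxipl, a glucose-sensing transcription factor, at 0.37 ± 0.14 and 0.15 ± 0.12, and Gckr, the inhibitor of glucokinase, at 0.30 ± 0.17 and -0.08 ± 0.10.

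Amino acid breakdown outside the 10 genes was described in the same way. Downstream of Tat, Hpd, Hgd and Fah were at 0.40 ± 0.16, 0.18 ± 0.09 and 0.27 ± 0.10 by ratio in females, but at 0.03 ± 0.09, -0.18 ± 0.12 and 0.05 ± 0.14 in the liver channel. The 11 tested genes of phenylalanine, tyrosine and tryptophan breakdown had medians of 0.16 in females and -0.04 in males by ratio, and -0.07 and -0.09 in the liver channel. Tdo2, the first enzyme of tryptophan breakdown and, like Tat, known to be induced by glucocorticoids, was higher in UV-Titan males, 0.32 ± 0.15 by ratio and 0.35 ± 0.14 in the liver channel, where Tat was lower. Of 11 serine, glycine and threonine genes the medians were 0.12 and -0.02 by ratio and 0.03 and -0.10 by liver signal. In females Sardh, which removes a methyl group from sarcosine, was at 0.28 ± 0.09 by ratio and 0.32 ± 0.13 in the liver channel, Gnmt, a glycine methyltransferase, at 0.46 ± 0.16 and 0.29 ± 0.16, and Agxt at 0.40 ± 0.16 and 0.16 ± 0.11. Of 10 methionine and cysteine genes they were 0.20 and -0.07 by ratio and 0.05 and -0.13 by liver signal, with Cdo1, which oxidises the cysteine that Cth makes, at 0.53 ± 0.19 in females by ratio and 0.19 ± 0.14 in the liver channel. Mat1a, which makes the methyl donor of the cell from methionine, was at 0.47 ± 0.20 and 0.12 ± 0.11 in females. Of 13 histidine, proline and glutamate genes they were 0.22 and -0.06 by ratio and 0.09 and -0.05 by liver signal, with Oat at -0.29 ± 0.10 by ratio and -0.18 ± 0.14 in the liver channel in males. In females Prodh2 was at 0.50 ± 0.20 by ratio and 0.26 ± 0.13 in the liver channel, and Hal, the first enzyme of histidine breakdown, at 0.40 ± 0.14 and 0.28 ± 0.17. Of 17 branched-chain and lysine genes they were 0.10 and -0.06 by ratio and 0.03 and -0.10 by liver signal, with Dbt at 0.38 ± 0.15 by ratio and 0.33 ± 0.16 in the liver channel in females.

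Genes known to answer to fasting or glucocorticoids were read for the feeding state that the labels do not give. By ratio 14 of 16 were above 0 in females (median 0.32) and 13 of 16 below 0 in males (median -0.19), and in the liver channel 10 of 16 and 11 of 16 (medians 0.10 and -0.14). Over all genes these shares were 58.5% and 43.4% by ratio, and 49.7% and 49.5% in the liver channel. Fgf21, the fasting hormone of liver, was at 1.17 ± 0.53 in females by ratio and 1.19 ± 0.58 in the liver channel, with ratios of controls from 0.11 to 2.91 and of UV-Titan from 1.87 to 3.35. Acot1, which frees fatty acids from coenzyme A, was at -1.14 ± 0.33 in males by ratio and -1.14 ± 0.31 in the liver channel. Its male controls ran from 1.17 to 2.87 and its UV-Titan males from -0.02 to 0.95 by ratio, which did not overlap. The same held for 1.07% of all genes with UV-Titan males lower. Dusp1, a phosphatase induced by glucocorticoids, was at 0.33 ± 0.13 in females by ratio and 0.38 ± 0.15 in the liver channel. Genes of the fed state had medians of -0.01 in females and -0.07 in males by ratio, and -0.0018 and -0.05 by liver signal, with Me1, malic enzyme, at -0.33 ± 0.13 by ratio and -0.30 ± 0.14 in the liver channel in males. Of the hormone signals and regulators, medians were 0.10 and 0.00 by ratio and 0.03 and -0.01 by liver signal. Crtc2, the coactivator that glucagon signals free for the nucleus, was at 0.24 ± 0.10 in females by ratio and 0.26 ± 0.09 in the liver channel. The transcription factors Ppara and Cebpa were at 0.31 ± 0.14 and 0.30 ± 0.13 by ratio, but at -0.10 ± 0.10 and 0.02 ± 0.11 in the liver channel. The feeding state of the animals was not recorded in the labels and cannot be told apart from exposure here.

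**Figure D5:**
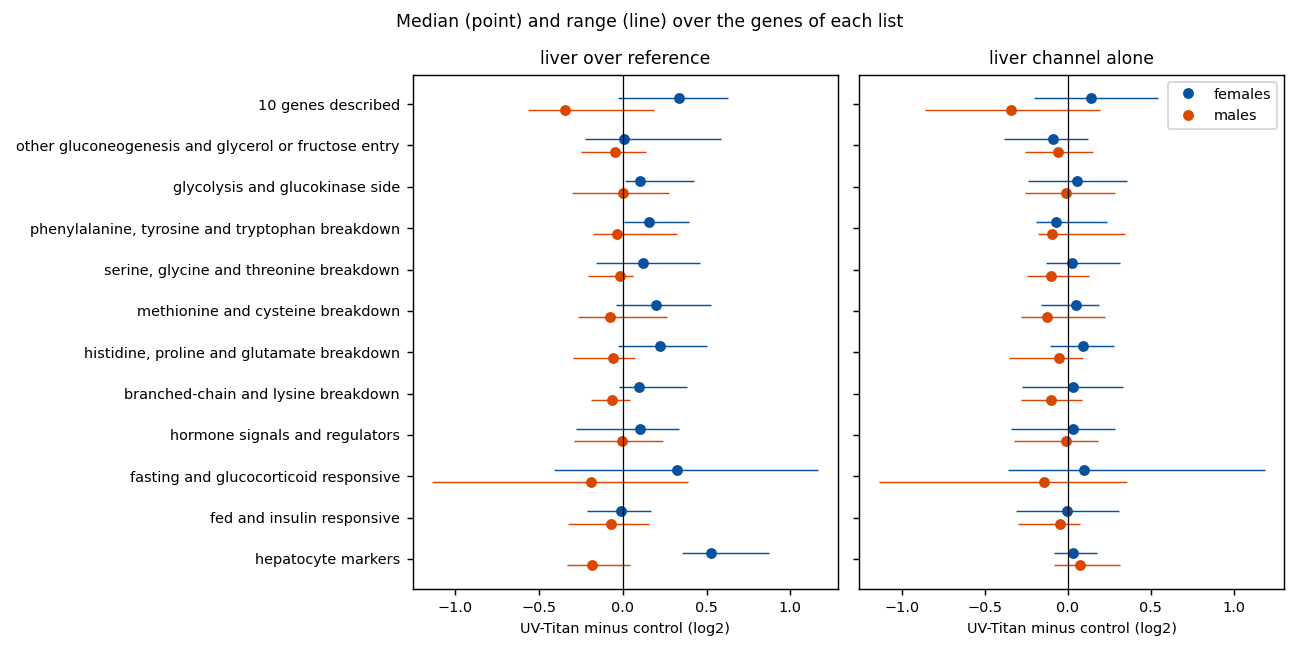
Median (point) and lowest to highest (line) UV-Titan minus control difference, log2, over the genes of each list in females and males, by ratio and in the liver channel. The 10 genes described, which were selected on these values, have medians of 0.34 and -0.35 by ratio and 0.14 and -0.34 in the liver channel. The hepatocyte markers have 0.53 and -0.18 by ratio but 0.03 and 0.07 in the liver channel.

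Granulocyte markers, read as a sign of other cells in the tissue, had a median of 0.52 in females and 0.04 in males by ratio, with 12 of 12 above 0 in females and Mmp8, a neutrophil collagenase, at 0.63 ± 0.13. By liver signal 12 of 12 were above 0 in both sexes, with medians of 0.39 in females and 0.16 in males, and 8 and 2 of 12 had an unadjusted p below 0.05. Over all genes 49.7% in females and 50.5% in males were above 0 by liver signal, and 1.55% and 1.52% were higher at the unadjusted level. By ratio 58.5% of all genes were above 0 in females. Mmp8 in males was at 0.35 ± 0.12 by ratio. The granulocyte mean ratio was 3.53 to 3.98 in female controls and 3.91 to 4.48 in UV-Titan females. By ratio in females and males, erythroid markers had medians of 0.26 and 0.02, markers of newborn liver 0.54 and -0.18, markers of weaned liver 0.40 and -0.03, and kidney tubule markers 0.07 and -0.08. By liver signal the erythroid medians were -0.06 and 0.20, with 9 of 9 above 0 in males. Those of newborn liver were 0.10 and 0.04, those of weaned liver 0.10 and -0.05, and those of kidney tubule 0.02 and -0.10. The part of these in the differences of the 10 genes was not tested. In a piece of liver, fewer cells of a type and less RNA in each cell cannot be told apart.

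The array positions of the probes are those of build mm7 in the scanner files, whose gene annotation was not used here. The Tat probe lies at chr8:108599439-108599498, that of Gpt2 at chr8:84117668-84117727, that of Cth at chr3:157802869-157802928, that of G6pc at chr11:101486672-101486731, that of Pck1 at chr2:172903552-172903615 and that of Sds at chr5:119717082-119717141. That of Got1 lies at chr19:43393921-43393979, that of Gpt at chr15:76781889-76782019, the brighter one of Ppargc1a at chr5:50830839-50830898, and that of Fbp1 on an unplaced piece of chromosome 13.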

How the data were processed

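Gene expression was measured on 16 arrays of 2 colours, 1 per animal. Mean spot intensity and local background intensity were deposited as scanned, per the file headers. Processed intensity, used as an alternative, had been background-subtracted, detrended and dye-normalised in Agilent Feature Extraction (9.5.3.1 per the labels, 9.5.1.1 per the file headers). A table of log2 values of unstated normalisation was deposited too. Against the scanner ratios its scale was log2 red over green (r 0.989 to 0.996, slope 0.995 to 1.09, column medians -0.045 to -0.0375), and its centring stays unknown.

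Control spots and spots with outlier marks were left out (90 to 135 marked per array, 0 saturated). Background was corrected in each channel by normexp with an offset of 50. Ratios were loess-normalised within arrays, and the single channels were quantile-scaled between arrays, in limma 3.58.1 under R 4.3.3. Genes entered the tests through their brightest liver probe, provided at least 3 arrays had it well above background. This left 19363 genes, 12356 named through a RefSeq accession and 7007 by the file's own name. One limma model with 4 group means gave all differences as two-sided tests. P-values were adjusted across the whole table (Benjamini-Hochberg) and called at 0.05. Group labels came from sample titles. Permutations used 100000 resamples, of which 1e-05 is the smallest p they can give. The number of arrays limits the precision. The fit was tested on simulated data.

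The genes described, the gene lists and the naming rule were set with earlier results of these data known. The rule named every gene described, up to 3 list genes with the smallest p in females and up to 2 in males by ratio (the text gives a selection), and the 5 genes most like Tat and Pck1. The others it named are counted only within their lists. Alternatives were other background corrections and scalings, slide or scan day as a block, array weights, other filters and probe rules, each sex alone, arrays left out, and the deposited table.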

Additional observations from a re-analysis of the deposited data

Results flagged for a closer look

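Among 60 groups of 4 or 5 arrays tested for a far sample, by gene and scale, 8 had one, where chance gives about 1 in 20, or 3. The ratio of Got1 was 0.23 in male UV-Titan 5, the array with muscle markers, above the other 3 of its group. The ratio of Cth was 2.67 in male UV-Titan 3, below the rest. The ratio of Fbp1 was 6.02 in female UV-Titan 16, which lay on slide 5, below the rest. Ppargc1a was highest in male control 33, 1 of the 2 pancreas-high arrays, at 2.78 by ratio and 11.52 in the liver channel. In the liver channel Gpt2 was 10.18 in male control 41, Got1 was 12.83 in female UV-Titan 21, and Fbp1 was 17.88 in male control 43, where the other 3 arrays share 1 quantile-scaled value to 2 decimals.

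The UV-Titan minus control difference of Tat by ratio was 0.83 higher in females than in males. Every UV-Titan female lay above all female controls and every UV-Titan male below all male controls, which raised the flag. Tat was selected with these opposite differences known, so the flag is a description and no support. The difference between the sexes was tested in limma, with an adjusted p of 0.98 over all genes, and so did not pass.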

How the results depend on the processing

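Of 1810 recomputed gene differences, 1761 kept their direction and their side of the threshold and 49 changed sign, 0 of them for Tat and 0 for Pck1. Some of the 1810 could not change. A difference within 1 sex stays the same when an array of the other sex is left out. The same holds when each sex is fitted alone or the filter on dim probes is changed. The side of the threshold had little room to change, as the lowest adjusted p in the models described was 0.614 in limma (Tat, females, ratio). The 1761 is therefore partly fixed in advance. Gene values within single slides, with 1 array a group, are not among the 1810, and there the sign differed for Tat (-0.14, liver channel, females, slide 1) and Pck1 (0.13, ratio, males, slide 3, and -0.10, liver channel, females, slide 1). It differed there for other genes too, among them G6pc in females (-0.60, liver channel, slide 5). Cth and Sds in females were both at -0.12 by ratio on slide 1. The cause was not tested except where the setting itself leaves out arrays. No paired analysis was possible because the groups share no replicate numbers, and slides that hold both groups were used as a block and for values within slides. Genes called by ratio, 0 in the models described, became 1 in males with the scanner software's processed signals. Averaged over both sexes they became 1 with no background correction. With slide as a block there was 1 in females and 1 averaged, with scan day as a block 1 and 10, and with array weights 6 and 6. With arrays left out in turn they ran from 0 to 11 averaged (11 without male control 43, 3 without female control 35) and from 0 to 1 in females. Male against female, 9 genes by ratio and 7 in the liver channel became 3 and 2 when probes had to be well above background on 16 arrays, and the 7 became 11 with scan day as a block. The median difference of the 10 genes in females was 0.64 with median centring in place of loess, 0.14 in the liver channel and 0.014 within slide 1. In males it was -0.13 without slide 5 (chosen after seeing the data), -0.14 within slide 2 and -0.12 within slide 3, and with arrays left out in turn it ran from -0.38 to -0.13, the latter without male UV-Titan 17.

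Sign changes by ratio in females were Gpt2 at 0.31 (median centring), 0.13 (liver channel, median centred) and 0.025 (array weights), Got1 at -0.015 (scan day) and -0.049 (array weights), Ppargc1a at -0.0015 (liver channel) and -0.061 (without slide 5), and Fbp1 at -0.20 (liver channel). In males they were G6pc at 0.013 and Got1 at 0.19 without the pancreas-high arrays. Between the sexes they were Fbp1 at -0.14 (liver channel), Got1 at -0.13 (without the pancreas-high arrays) and Sds at -0.018 (without slide 5). In the liver channel, Fbp1 in males was 0.0038 (processed signals), 0.0042 (no background correction) and 0.024 (without the muscle-high array). With median centring Fbp1 was 0.16 and Gpt2 0.13 and Ppargc1a 0.23 in females, and Fbp1 0.27 between the sexes. Ppargc1a in females was 0.033 (slide block), 0.018 (array weights) and 0.050 (mean over probes), and Got1 -0.018, -0.053 and -0.060 (slide block, scan day block, array weights). Got1 without the pancreas-high arrays was 0.24 in males and -0.24 between the sexes.

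With arrays left out in turn, ratio differences that changed sign ran from -0.083 to 0.18 (Got1, females), -0.27 to 0.023 (Got1, males), -0.10 to 0.10 (Gpt2, females), -0.11 to 0.42 (Ppargc1a, females) and -0.016 to 0.34 (Sds, males). In the liver channel they ran from -0.013 to 0.30 (Cth, females), -0.13 to 0.024 (Fbp1, males), -0.12 to 0.072 (Got1, females), -0.25 to 0.035 (Got1, males), -0.031 to 0.25 (Got1, between the sexes), -0.044 to 0.25 (Gpt, females), -0.16 to 0.13 (Ppargc1a, females) and -0.0135 to 0.39 (Sds, males). In the liver and the reference channel, 57.7% to 67.1% and 62.7% to 69.8% of spots were well above background.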
